A study of Rattus norvegicus with 9 samples.

Results

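The genes described here are 8 that serve the display of peptides on class I molecules of the major histocompatibility complex (MHC), followed across the hippocampus of stimulated stroke rats, unstimulated stroke rats and control rats. They were chosen by symbol: the class I heavy chains RT1-A1 and RT1-A2, the light chain B2m, the peptide transporter subunits Tap1 and Tap2, and the immunoproteasome subunits Psmb8, Psmb9 and Psmb10. All 8 were found among the 18733 genes of each deposited table, and all 8 were among the 14840 genes that passed a filter on low counts. Poly(A)-selected hippocampal RNA of male rats was sequenced, with 3 libraries in each of 3 groups. The taVNS rats had cognitive impairment after middle cerebral artery occlusion (MCAO, spelled MACO in the labels of this group), a surgical model of ischaemic stroke, and then received transcutaneous auricular vagus nerve stimulation, which is applied through the skin of the outer ear, for 14 days. The PSCI rats (post-stroke cognitive impairment) had the same occlusion and impairment and were kept on ordinary feed for 2 weeks without stimulation. The control rats were on ordinary feed, and the labels speak of no surgery for them, sham or otherwise. Stroke rats were admitted by maze and object tests, with a limit worded as 20% of the control mean, and were allotted at random to the taVNS or PSCI group. Strain, age and hemisphere are not given in the sources used here, nor whether PSCI rats had a sham stimulation. The text on RNA extraction speaks of tissue from each mouse, whereas the organism label is the rat. Nothing further says that a library is 1 animal, so the p-values measure the spread between these libraries.

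Class I molecules carry short peptides from inside a cell to its surface, where CD8+ T cells and natural killer cells read them. Proteasomes cut proteins into such peptides, and in cells exposed to interferon the catalytic subunits Psmb5, Psmb6 and Psmb7 are replaced in newly built particles by Psmb8, Psmb9 and Psmb10. The transporter of Tap1 and Tap2 moves the peptides into the endoplasmic reticulum, where they are loaded onto a heavy chain paired with B2m. In healthy brain, class I genes are known to be low in most neurons and higher in microglia and in the cells of blood vessels. In the rat the class I region is called RT1, and its genes are numerous, close to each other in sequence and different between strains.

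In the reference gene table Tap2, Psmb8, Tap1 and Psmb9 stand next to each other in that order on chromosome 20, with no other protein-coding gene between them. RT1-A2 stands between RT1-A3 and RT1-A1 on the same chromosome, B2m lies on chromosome 3 and Psmb10 on chromosome 19. The starts of Tap1 and Psmb9 face away from each other, with 456 bases between them in build GRCr8. The promoters of 6 members are shown, with motifs that differ in kind, number or place. Tap1, Tap2 and Psmb9 among them belong to that row of neighbours, and RT1-A2, B2m and Psmb10 stand elsewhere. Each line gives, 5′ to 3′ along the gene, the 200 bases just before the annotated start, from RefSeq promoters of build GRCr8. This build is newer than mRatBN7.2, which the submitters' processing notes name. Capitals mark matches to any of 4 motifs on either strand. The coordinates are chr20:4872671-4872870 (plus strand) for RT1-A2, chr3:129549130-129549329 (plus) for B2m, chr20:4668544-4668743 (minus) for Tap1, chr20:4668800-4668999 (plus) for Psmb9, chr20:4652297-4652496 (minus) for Tap2 and chr19:50743293-50743492 (minus) for Psmb10.
RT1-A2: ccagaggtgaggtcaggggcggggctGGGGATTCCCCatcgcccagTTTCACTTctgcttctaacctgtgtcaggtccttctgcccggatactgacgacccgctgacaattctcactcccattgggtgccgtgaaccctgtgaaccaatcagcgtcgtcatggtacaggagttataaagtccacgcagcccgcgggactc
B2m: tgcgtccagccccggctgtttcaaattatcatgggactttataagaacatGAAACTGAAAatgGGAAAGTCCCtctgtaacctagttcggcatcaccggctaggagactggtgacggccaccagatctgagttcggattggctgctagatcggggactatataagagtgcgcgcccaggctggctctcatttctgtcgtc
Tap1: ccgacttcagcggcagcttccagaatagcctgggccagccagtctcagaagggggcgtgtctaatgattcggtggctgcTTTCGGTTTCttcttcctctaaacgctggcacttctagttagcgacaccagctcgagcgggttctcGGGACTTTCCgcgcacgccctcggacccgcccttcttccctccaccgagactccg
Psmb9: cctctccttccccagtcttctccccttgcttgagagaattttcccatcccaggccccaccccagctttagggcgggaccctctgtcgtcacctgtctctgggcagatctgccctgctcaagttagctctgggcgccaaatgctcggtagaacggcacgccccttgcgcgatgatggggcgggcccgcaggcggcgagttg
Tap2: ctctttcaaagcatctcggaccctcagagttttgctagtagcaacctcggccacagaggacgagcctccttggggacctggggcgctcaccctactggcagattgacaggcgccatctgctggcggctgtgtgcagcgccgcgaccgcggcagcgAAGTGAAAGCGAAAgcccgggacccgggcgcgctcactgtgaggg
Psmb10: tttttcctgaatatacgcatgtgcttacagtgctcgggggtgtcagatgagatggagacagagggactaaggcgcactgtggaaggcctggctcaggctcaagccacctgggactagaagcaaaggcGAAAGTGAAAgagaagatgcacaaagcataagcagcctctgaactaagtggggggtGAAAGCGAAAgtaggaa

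The 4 motifs were searched on both strands in the windows of all 8 members and of 33469 promoters in all, each with 250 bases before the start and 50 from the start on. The interferon-stimulated response element (GAAA, any 2 bases, then GAAA, bound by interferon regulatory factors) was in 5 of the 8 members' windows (B2m, Tap1, Tap2, Psmb8 and Psmb10), against 3.92% of all promoters. Psmb10 held it at 2 places, GAAAGTGAAA from base -73 and GAAAGCGAAA from base -17, counting the base before the start as -1. In Psmb8 the element ran across the start, from base -4. A shorter IRF motif (AANNGAAA), which every match to the response element contains, was in 7 of 8, against 26.4% of all promoters. The NF-kB site (GGGA, any base, T, any 2 bases, then CC) was in 4 of 8 (RT1-A1, RT1-A2, B2m and Tap1), against 3.91% of all promoters. The GAS element (TTCNNNGAA) was in 1 of 8 (Psmb8), against 8.87% of all promoters. Psmb9 held none of the 4 in its window. The response element (from base -121) and the NF-kB site (from base -55) of Tap1 lie between the starts of Tap1 and Psmb9, outside the window of Psmb9. A match describes letters in this window and is not a measured site.

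The libraries held from 13747389 to 15415694 counts. Levels are given as CPM, which is counts scaled to library size after TMM normalization, or as RPKM, which also divides by gene length and is the unit used to compare genes. Differences are log2 fold changes with the standard error (SE) of an edgeR quasi-likelihood fit over all 9 libraries, and a gene was called where the Benjamini-Hochberg adjusted p over all genes tested was under 0.05. The 10 markers of hippocampal neurons were detected in every group, with summed levels of 6710 to 9590 CPM in taVNS, 4250 (in replicate 2) to 8780 CPM in PSCI and 7540 to 8930 CPM in control libraries. A pair of libraries stood apart by 12 markers of meninges and fibroblasts: these summed to 488 CPM in taVNS replicate 3 and 362 CPM in PSCI replicate 2, against 63.8 to 117 CPM in the other 7. The results are therefore also given without this pair.

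All 8 members were higher in PSCI than in control libraries, by 0.32 to 2.06 on the log2 scale with a median of 1.19, and 4 of the 8 passed the test: Psmb8, Psmb9, Tap1 and RT1-A2. None of the 8 was called lower. Of all genes tested, 7.71% were called higher, 2.14% lower and 9.85% in either direction in this comparison, and the median difference over all of them was -3.7e-05. In 7 of 8 members, all but RT1-A1, the 3 PSCI libraries lay above the 3 control libraries, as they did for 16.2% of all genes. In taVNS libraries all 8 members averaged between the other groups. None passed the test in taVNS against PSCI, where differences ran from -1.14 to -0.16 with a median of -0.59 and 4.91% of all genes were called lower, 0.842% higher and 5.75% in either direction. None passed in taVNS against control either, where they ran from 0.14 to 0.93 with a median of 0.60 and no gene was called in either direction (0.0%, edgeR). In that last comparison 322 genes (2.17%) were higher and 235 (1.58%) lower at an unadjusted p under 0.05, and DESeq2 called 7. The 3 comparisons share their libraries and are not independent of each other. In bulk tissue, more cells of a type and more RNA per cell cannot be told apart. The 14 markers of microglia and macrophages, none of them at 0 in any group, summed to 426 to 510 CPM in taVNS, 669 to 1060 CPM in PSCI and 316 to 408 CPM in control libraries, and their part in the members' levels was not tested.

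**Figure D1:**
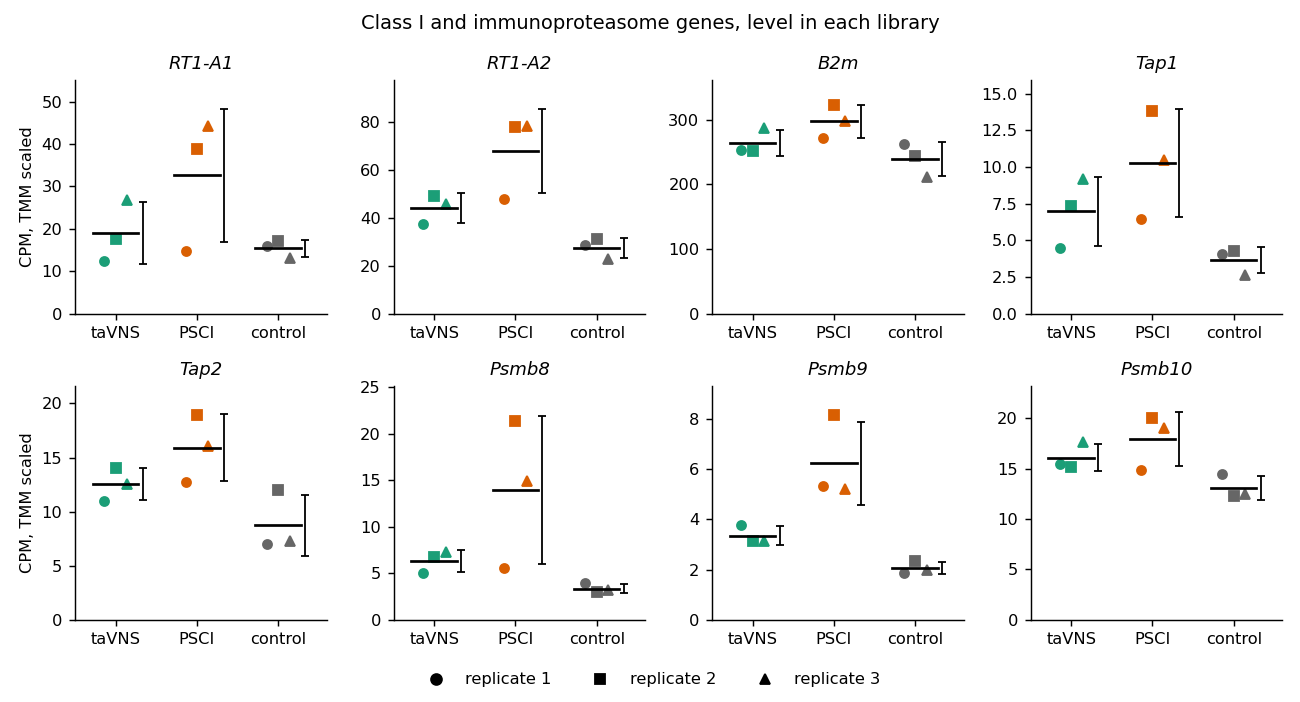
Level of each of the 8 genes in each library (CPM after TMM scaling, each axis from 0), with taVNS, PSCI and control from left to right; marker shapes give the replicate number, horizontal lines the mean and bars the SD of 3 libraries. PSCI replicate 1 is the lowest PSCI library for 7 of 8 genes, and the taVNS mean lies between the other means for all 8.

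The heavy chain RT1-A2 had 37.4, 49.2 and 46.0 CPM in taVNS replicates 1 to 3, 47.8, 78.0 and 78.6 CPM in PSCI replicates 1 to 3, and 28.6, 31.0 and 22.9 CPM in control replicates 1 to 3. Every stroke library, stimulated or not, lay above every control library, while taVNS replicate 2 reached just above PSCI replicate 1. RT1-A2 rose 2.48-fold in PSCI against control (log2 1.31 ± 0.207 SE, adjusted p = 0.00627, edgeR). Its difference was -0.62 ± 0.203 in taVNS against PSCI (adjusted p = 0.116) and 0.69 ± 0.206 in taVNS against control (unadjusted p = 0.00853, adjusted p = 1.0).

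RT1-A1, the other classical heavy chain, had 12.5, 17.6 and 26.9 CPM in taVNS libraries, 14.7, 38.7 and 44.3 CPM in PSCI libraries and 15.9, 17.1 and 13.1 CPM in control libraries. PSCI replicate 1 lay among the control libraries and far under the other PSCI libraries. The difference was 1.08 ± 0.395 in PSCI against control (adjusted p = 0.126, edgeR) and -0.77 ± 0.391 in taVNS against PSCI (adjusted p = 0.295). In taVNS against control it was 0.30 (adjusted p = 1.0), and it changed sign to -0.03 without taVNS replicate 3.

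The counts of RT1-A1 and RT1-A2 were fractions in 9 of 9 libraries, as estimated counts are where reads are divided between similar genes, while those of the other 6 members were whole in 9 of 9. How reads were shared between the heavy-chain rows is therefore uncertain. With the counts of both rows added, the difference was 1.23 in PSCI against control (adjusted p = 0.0172, edgeR), -0.67 in taVNS against PSCI (adjusted p = 0.16) and 0.56 in taVNS against control (adjusted p = 1.0).

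The light chain B2m, which every class I molecule needs, had 253, 251 and 287 CPM in taVNS libraries, 272, 323 and 298 CPM in PSCI libraries and 263, 244 and 211 CPM in control libraries. The PSCI libraries lay above the control libraries by a narrow margin, and the taVNS libraries overlapped both. The difference of 0.32 ± 0.113 in PSCI against control was the smallest of the 8 and did not pass the test (adjusted p = 0.118, edgeR). It was -0.18 ± 0.113 in taVNS against PSCI (adjusted p = 0.412).

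The transporter subunit Tap1 had 4.48, 7.34 and 9.15 CPM in taVNS libraries, 6.48, 13.8 and 10.5 CPM in PSCI libraries and 4.07, 4.25 and 2.64 CPM in control libraries. All 6 stroke libraries lay above the control libraries, and taVNS and PSCI overlapped. Tap1 rose 2.80-fold in PSCI against control (log2 1.48 ± 0.351, adjusted p = 0.0292, edgeR). The difference was -0.55 ± 0.338 in taVNS against PSCI (adjusted p = 0.39) and 0.93 ± 0.351 in taVNS against control (unadjusted p = 0.0255, adjusted p = 1.0).

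Its partner Tap2 had 11.0, 14.0 and 12.6 CPM in taVNS libraries, 12.7, 18.9 and 16.1 CPM in PSCI libraries and 6.97, 12 and 7.27 CPM in control libraries. Control replicate 2 stood above the other controls and reached into the taVNS range but not into the PSCI range. The difference of 0.86 ± 0.238 in PSCI against control missed the threshold (adjusted p = 0.0531, edgeR). It passed without control replicate 2 (adjusted p = 0.0302) or without PSCI replicate 1 (adjusted p = 0.0274). In taVNS against PSCI it was -0.34 ± 0.234 (adjusted p = 0.449).

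Of the immunoproteasome subunits, Psmb8 (LMP7) had 5.04, 6.71 and 7.24 CPM in taVNS libraries, 5.59, 21.4 and 14.9 CPM in PSCI libraries and 3.93, 2.97 and 3.16 CPM in control libraries. The PSCI libraries spread widely, and PSCI replicate 1 lay within the taVNS range. Psmb8 rose 4.16-fold in PSCI against control, the largest difference of the 8 (log2 2.06 ± 0.425, adjusted p = 0.0178, edgeR). It was -1.14 ± 0.406 in taVNS against PSCI (unadjusted p = 0.0199, adjusted p = 0.147), and all taVNS libraries lay above all control libraries.

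Psmb9 (LMP2) had 3.78, 3.15 and 3.14 CPM in taVNS libraries, 5.32, 8.16 and 5.22 CPM in PSCI libraries and 1.86, 2.34 and 1.98 CPM in control libraries. The 3 groups did not overlap, with taVNS between PSCI and control. Psmb9 was the only member whose taVNS libraries all lay under its PSCI libraries, as 15.2% of all genes did. It rose 3.02-fold in PSCI against control (log2 1.59 ± 0.245, adjusted p = 0.0059, edgeR). It came nearest to the threshold in taVNS against PSCI, at -0.89 ± 0.236 (unadjusted p = 0.00422, adjusted p = 0.0622).

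Psmb10 (MECL-1) had 15.5, 15.2 and 17.6 CPM in taVNS libraries, 14.9, 20.0 and 19.0 CPM in PSCI libraries and 14.5, 12.3 and 12.5 CPM in control libraries. All stroke libraries lay above all control libraries, by little. The difference was 0.46 ± 0.144 in PSCI against control (adjusted p = 0.0804, edgeR) and -0.16 ± 0.143 in taVNS against PSCI (adjusted p = 0.576). Psmb10 was thus not called, and its difference was under 1 log2 unit where those of Psmb8 and Psmb9 were over 1.

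**Figure D2:**
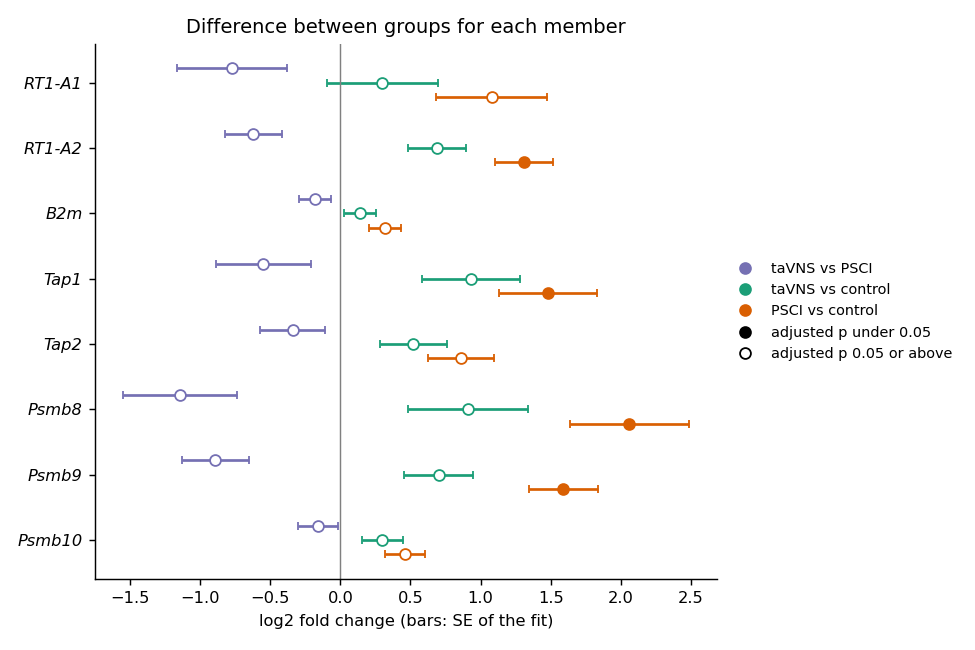
Log2 fold change of each of the 8 genes, with bars for the SE of the edgeR fit; filled points have an adjusted p under 0.05. The filled points are RT1-A2, Tap1, Psmb8 and Psmb9 in PSCI against control, and all 8 genes lie left of 0 in taVNS against PSCI.

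At an unadjusted p under 0.05, all 8 members were higher in PSCI than in control libraries (16.2% of all genes), 3 were lower in taVNS than in PSCI (RT1-A2, Psmb8 and Psmb9, against 14.1% of all genes) and 3 were higher in taVNS than in control (RT1-A2, Tap1 and Psmb9, against 2.17%). In 5 members (RT1-A2, Tap1, Psmb8, Psmb9 and Psmb10) every taVNS library lay above every control library, as for 5.74% of all genes.

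Several calls changed when 1 library was left out. RT1-A2 and Psmb9 stayed called in PSCI against control whichever library was left out, with adjusted p up to 0.0315 and 0.03 (edgeR). Tap1 was no longer called without control replicate 1 (0.0731), 2 (0.0742) or 3 (0.112), nor without PSCI replicate 2 (0.0638) or 3 (0.08). Psmb8 was no longer called without control replicate 1 (0.0511), 2 (0.0739) or 3 (0.0737), nor without PSCI replicate 3 (0.0535). PSCI replicate 1 was the lowest PSCI library for 7 of 8 members, and PSCI replicate 2 the highest for 6. Without PSCI replicate 1, RT1-A1 (adjusted p = 0.0099), Tap2 and Psmb10 (adjusted p = 0.0213) were also called in PSCI against control. Without it RT1-A1 (0.0321), RT1-A2 (0.0109), Psmb8 (0.00418) and Psmb9 (0.0415) were called lower in taVNS against PSCI. The number of all genes called also changed with the library left out, and the share called without PSCI replicate 1 is not given here. These calls are therefore not read as particular to the members. Without PSCI replicate 2 and taVNS replicate 3, the pair with high meningeal markers, RT1-A2 (1.19, adjusted p = 0.0156), Psmb8 (1.59, adjusted p = 0.0388) and Psmb9 (1.34, adjusted p = 0.0143) were called in PSCI against control, and Tap1 was not (1.2, adjusted p = 0.0575).

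The inducible subunits were set against the constitutive subunits they replace, as RPKM ratios within each library. Psmb8 amounted to 4.70% ± 1.02 of Psmb5 in taVNS, 10.3% ± 6.07 in PSCI and 2.28% ± 0.0493 in control libraries (SD, n = 3 each). Psmb9 amounted to 4.21% ± 0.382 of Psmb6 in taVNS, 7.75% ± 1.88 in PSCI and 2.48% ± 0.63 in control libraries. Psmb10 amounted to 10.2% ± 0.522 of Psmb7 in taVNS, 11.2% ± 1.27 in PSCI and 7.86% ± 0.276 in control libraries. For all 3 pairs, the taVNS and the PSCI libraries lay above the control libraries, and the constitutive subunits made up most of the transcript in every library. The constitutive subunits themselves showed no call in PSCI against control: the differences were -0.11 ± 0.107 for Psmb5 (adjusted p = 0.574, edgeR), -0.091 ± 0.113 for Psmb6 (adjusted p = 0.675) and -0.063 ± 0.101 for Psmb7 (adjusted p = 0.76). The sign of these small differences changed when 1 library was left out.

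On the log2 scale the ratio of Psmb8 to Psmb5 differed by 1.97 in PSCI against control, that of Psmb9 to Psmb6 by 1.65 and that of Psmb10 to Psmb7 by 0.51. In taVNS against PSCI these ratios differed by -0.95, -0.86 and -0.13 in that order, and only the ratio of Psmb9 to Psmb6 was separated, with taVNS at 3.85% to 4.61% and PSCI at 6.16% to 9.82%. In taVNS against control they differed by 1.02, 0.79 and 0.38, and all 3 were separated. B2m was 3.34 ± 0.523 times the sum of RT1-A1 and RT1-A2 in taVNS, 2.47 ± 0.777 times in PSCI and 4.49 ± 0.462 times in control libraries. This ratio was lower in every stroke library than in every control library, narrowly so for taVNS replicate 1 (3.92) against control replicate 2 (3.96). RT1-A1 and RT1-A2 took only 19.3% to 34.0% of the class I RT1 counts of a library. The ratio of B2m to all class I rows was not tested. Tap1 was 0.495 ± 0.143 of Tap2 in taVNS, 0.566 ± 0.1 in PSCI and 0.388 ± 0.116 in control libraries, and the PSCI and control libraries overlapped. Of these 15 comparisons each separated one had an exact two-sided permutation p of 0.1, the smallest that 3 against 3 libraries allow, and an adjusted p of 0.167, so none could pass the threshold.

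**Figure D3:**
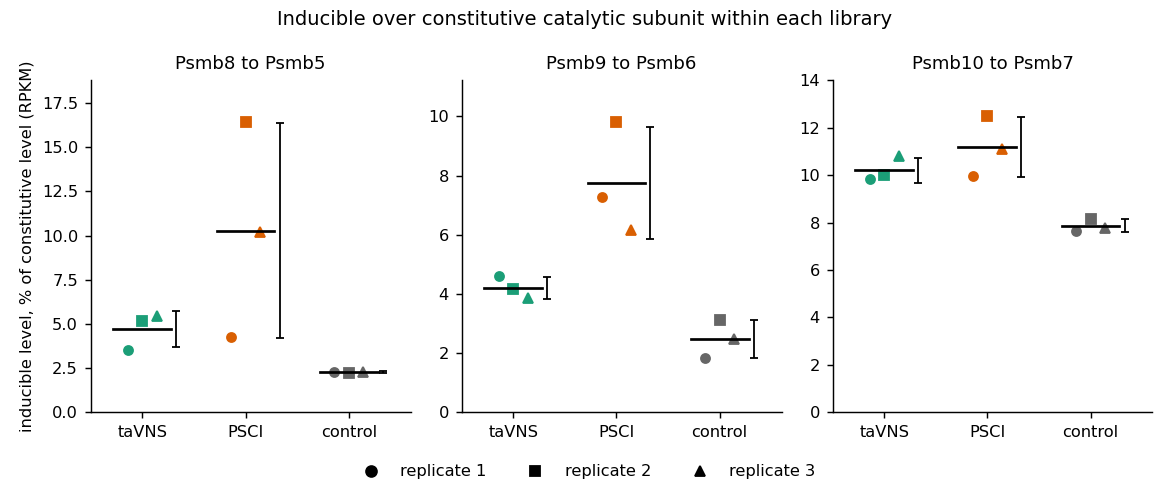
RPKM of each inducible subunit as a percentage of the constitutive subunit it replaces, per library, with taVNS, PSCI and control from left to right; lines are means and bars the SD of 3 libraries. Control libraries are lowest in all 3 panels, and Psmb9 to Psmb6 is the ratio with 3 groups that do not overlap.

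Per length, B2m was the most abundant member in every group, at 170 ± 16.2 RPKM in taVNS, 195 ± 22.9 RPKM in PSCI and 151 ± 15.4 RPKM in control libraries (SD, n = 3 each). RT1-A2 came next, at 34.1 ± 3.91 RPKM in taVNS, 53.9 ± 14.8 RPKM in PSCI and 20.8 ± 3.1 RPKM in control libraries. Tap1 was the lowest, at 2.92 ± 0.996 RPKM in taVNS, 4.37 ± 1.69 RPKM in PSCI and 1.49 ± 0.35 RPKM in control libraries. Between them, the order in control libraries was Psmb10 (17.7 RPKM), RT1-A1 (13.1), Psmb8 (4.05), Tap2 (4.0) and Psmb9 (3.2). RT1-A2 and Psmb10 overlapped there, as did Psmb8 with Tap2 and Tap2 with Psmb9. In taVNS libraries the order was Psmb10 (22.2 RPKM), RT1-A1 (17.6), Psmb8 (7.77), Tap2 (5.83) and Psmb9 (5.29), with overlap of Psmb10 with RT1-A1 and of Tap2 with Psmb9. In PSCI libraries it was RT1-A1 (31.0 RPKM), Psmb10 (25.4), Psmb8 (17.8), Psmb9 (10.1) and Tap2 (7.53), and every neighbouring pair below B2m overlapped.

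The tables hold 33 class I RT1 rows, of which 23 passed the filter, and 2 of the 23 were called higher in PSCI against control, RT1-A2 and RT1-CE5, a share near the 7.71% of all genes, with a median difference of 0.43 over the 23 (0.42 in taVNS against control, where none was called). RT1-CE5 averaged 38.5 ± 7.13 CPM in taVNS, 52.1 ± 9.82 CPM in PSCI and 26.6 ± 5.72 CPM in control libraries. Its counts were whole in 0 of 9 libraries, as for RT1-A1 and RT1-A2, so how reads were shared is uncertain for this row too. RT1-CE5 rose by 0.97 ± 0.21 in PSCI against control (adjusted p = 0.0214, edgeR). The adjusted p passed 0.05 on leaving out control replicate 2 (0.0652), control replicate 3 (0.0734), PSCI replicate 3 (0.0688) or the pair with high meningeal markers (0.0578). None of the 23 was called in taVNS against PSCI. All class I RT1 counts together came to 284 ± 62.1 CPM in taVNS, 319 ± 62.0 CPM in PSCI and 217 ± 28.2 CPM in control libraries, and their sum did not pass the test in PSCI against control (0.55, adjusted p = 0.115). RT1-A1 and RT1-A2 took 22.4% ± 1.06 of these counts in taVNS, 31.0% ± 4.94 in PSCI and 19.7% ± 0.346 in control libraries, and the 3 groups did not overlap. This share depends on how reads were divided between similar rows. It also depends on the other rows: RT1-CE16 alone took from 3.17% of these counts (PSCI replicate 2) to 23.5% (control replicate 1).

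Many class I rows varied widely between libraries of 1 group. In 18 of the 23 rows, the libraries of at least 1 group spanned over 1 log2 unit, as in 22.3% of all genes, and the median of the widest span within a group was 1.84 over the 23 rows against 0.52 over all genes. RT1-A3, the neighbour of RT1-A2, had 1.33, 1.54 and 18.1 CPM in taVNS libraries, 2.79, 15 and 20.9 CPM in PSCI libraries and 13.9, 8.78 and 6.61 CPM in control libraries. RT1-CE16 had 12.1, 15.2 and 71.6 CPM in taVNS libraries, 24.5, 10.9 and 15 CPM in PSCI libraries and 52.7, 31.0 and 19.5 CPM in control libraries. RT1-N2 had 20.8, 20.3 and 6.08 CPM in taVNS libraries, 3.14, 11.9 and 12 CPM in PSCI libraries and 5.31, 7.30 and 15.7 CPM in control libraries. The libraries of each group differed widely in these 3 rows, and taVNS replicate 3 differed from the other taVNS libraries in each. Counts were whole in 0 of 9 libraries for RT1-A3, 1 of 9 for RT1-CE16 and 2 of 9 for RT1-N2. How reads were shared between similar rows is therefore uncertain here too. Among the wide rows was RT1-A1, with a widest span of 1.59, while RT1-A2 (0.71) and RT1-CE5 (0.62) were among the 5 that stayed under 1.

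**Figure D4:**
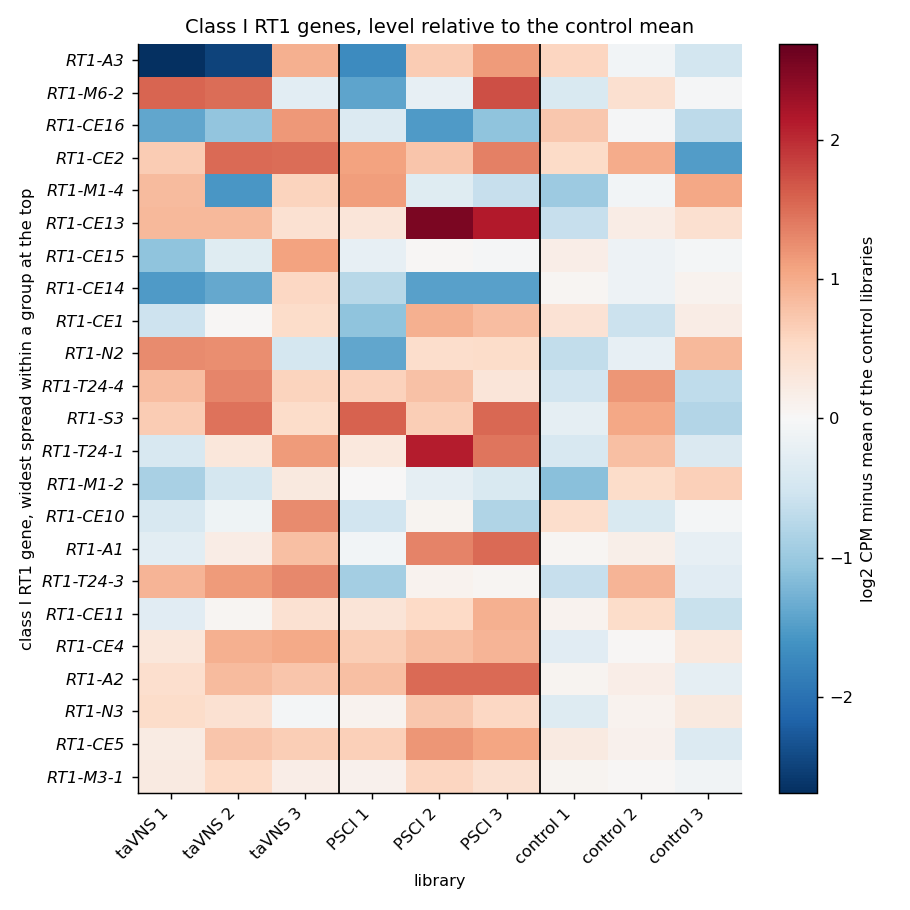
Level of each of the 23 class I RT1 genes in each library, as log2 CPM minus the mean of the control libraries, with the widest span within a group at the top. RT1-A3, with a span of 3.63, changes colour within groups, while RT1-A2 and RT1-CE5 near the bottom are a darker red in PSCI than in control libraries.

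Few genes of the wider proteasome and loading pathway passed the test. None of the 14 constitutive 20S proteasome genes was called in any comparison, and their median difference was -0.011 in PSCI against control. Of 10 activators and assembly factors 1 was called higher in PSCI, against 7.71% of all genes, namely Psme1, a subunit of the PA28 cap that opens the particle, at 38.7 ± 8.66 CPM in taVNS, 61.3 ± 21.5 CPM in PSCI and 32.2 ± 1.1 CPM in control libraries. It rose by 0.93 ± 0.239 (adjusted p = 0.0408, edgeR) and was no longer called when any library other than PSCI replicate 1 or taVNS replicate 3 was left out, with adjusted p of 0.0558 to 0.131. Its partner Psme2 was at 6.77 ± 1.01 CPM in taVNS, 8.75 ± 2.21 CPM in PSCI and 6.47 ± 0.571 CPM in control libraries (0.44 ± 0.214, adjusted p = 0.243).

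Of 10 genes for peptide loading and trimming 2 were called higher in PSCI against control and none in taVNS against PSCI. Over the constitutive, activator and loading lists together, the calls are 0 of 14, 1 of 10 and 2 of 10, a share near that of all genes. Tapbpl, the peptide editor TAPBPR, rose by 1.04 ± 0.226 (adjusted p = 0.0213, edgeR), at 8.51 ± 1.1 CPM in taVNS, 14.1 ± 4.38 CPM in PSCI and 6.85 ± 0.452 CPM in control libraries. Its adjusted p was 0.0666 to 0.0717 on leaving out any 1 control and 0.0563 on leaving out PSCI replicate 3. Erap1, which trims peptides in the endoplasmic reticulum, rose by 0.93 ± 0.22 (adjusted p = 0.0296), at 26.0 ± 4.02 CPM in taVNS, 40.8 ± 9.3 CPM in PSCI and 21.5 ± 5.51 CPM in control libraries. Leaving out control replicate 1 (0.0917), control replicate 3 (0.108), PSCI replicate 2 (0.0583), PSCI replicate 3 (0.0552) or the meningeal pair (0.0754) ended its call. Tapbp (tapasin), which bridges the transporter and the heavy chain, was at 20.7 ± 2.6 CPM in taVNS, 24.4 ± 5.59 CPM in PSCI and 16.3 ± 0.881 CPM in control libraries and missed the threshold (0.58 ± 0.167, adjusted p = 0.0602).

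Of 20 regulators of class I genes 5 were called higher in PSCI against control (Nlrc5, Irf8, Rela, Nfkb1 and Ifngr1, the last named after its values were seen), with a median of 0.40 over the 20. Of all genes tested, 7.71% were called higher there and 4.91% were called lower in taVNS against PSCI. Nlrc5, the transactivator of class I genes, was at 2.36 ± 0.466 CPM in taVNS, 4.92 ± 2.41 CPM in PSCI and 1.26 ± 0.133 CPM in control libraries. It rose by 1.96 ± 0.371 (adjusted p = 0.0123, edgeR), with an adjusted p of 0.0509 on leaving out control replicate 2 and 0.051 on leaving out control replicate 3. Irf8, an interferon regulatory factor of microglia and other myeloid cells, was at 14.9 ± 1.57 CPM in taVNS, 42.7 ± 19.1 CPM in PSCI and 7.38 ± 1.58 CPM in control libraries and rose by 2.53 ± 0.337 (adjusted p = 0.00342). Of these 5 all but Nlrc5 were called lower in taVNS against PSCI. Irf8 fell by 1.52 there (adjusted p = 0.0287). Leaving out control replicate 2 (0.057), PSCI replicate 2 (0.053), PSCI replicate 3 (0.0925), any 1 taVNS library (0.0731 to 0.122) or the meningeal pair (0.0904) ended that call. Irf1, an interferon-response factor, was at 8.16 ± 1.09 CPM in taVNS, 11.5 ± 4.86 CPM in PSCI and 6.42 ± 0.974 CPM in control libraries and was not called in PSCI against control (0.83 ± 0.287, adjusted p = 0.105).

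For the NF-kB subunits the deposited tables disagreed in size. Nfkb1 rose by 2.18 ± 0.131 on counts in PSCI against control (adjusted p = 3.95e-05, edgeR), with means of 24.0 CPM in taVNS, 98.3 CPM in PSCI and 21.7 CPM in control libraries. Its RPKM means were 6.51 in taVNS, 15.5 in PSCI and 5.66 in control libraries, a log2 ratio of 1.46 for PSCI over control. Rela rose by 1.85 ± 0.155 on counts (adjusted p = 0.000348), with a log2 ratio of 1.54 between RPKM means. In taVNS against PSCI, Nfkb1 fell by 2.04 and Rela fell by 1.80 on counts (adjusted p = 5.61e-05 and 0.000542), with log2 ratios of -1.26 and -1.46 between their RPKM means.

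Of 20 interferon-induced genes 3 were called higher in PSCI against control (7.71% of all genes), with a median of 0.51. Gbp2, a guanylate-binding GTPase, rose by 2.82 ± 0.329 (adjusted p = 0.00202, edgeR), Ifitm3, which blocks viral entry, by 3.23 ± 0.346 (adjusted p = 0.00136) and Bst2 (tetherin) by 1.78 ± 0.244 (adjusted p = 0.00376). In taVNS against PSCI, Ifitm3 fell by 2.18 (adjusted p = 0.00766) and Gbp2 fell by 1.76 (adjusted p = 0.015). Leaving out taVNS replicate 1 (0.0783) or 2 (0.0667) ended the call of Gbp2. Over the 20 genes the median was 0.085 in taVNS against PSCI, with 11 of 20 above 0, and 0.75 in taVNS against control, with 19 of 20 above 0 and none called. Of 7 tested genes of class II presentation 4 were called higher in PSCI against control (7.71% of all genes). RT1-DMa and RT1-DMb, which load class II molecules, rose by 1.2 ± 0.129 and 2.05 ± 0.214 (adjusted p = 0.00136 and 0.00127) and fell by 1.07 and 1.76 in taVNS against PSCI (adjusted p = 0.00383 each). RT1-Da, a class II chain, rose by 4.17 ± 0.93 (adjusted p = 0.0233), and its adjusted p was 0.0846 to 0.0909 on leaving out any 1 control and 0.0686 on leaving out PSCI replicate 3. Cd74, the invariant chain, rose by 2.81 ± 0.691 (adjusted p = 0.0346), and leaving out any library other than PSCI replicate 1 ended its call (0.0509 to 0.128). In PSCI replicate 1 Cd74 (3.07 CPM) lay within the control range (2.79 to 3.66 CPM) and under every taVNS library (9.58 to 11.5 CPM). RT1-Da in that library (0.818 CPM) also lay under every taVNS library (1.33 to 3.62 CPM).

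Of the other class I-like genes, whose products resemble class I heavy chains, 5 were tested and 1 was called higher in PSCI against control (7.71% of all genes). This was Cd1d1, which presents lipids, at 1.23 ± 0.174 CPM in taVNS, 2.69 ± 0.277 CPM in PSCI and 1.13 ± 0.482 CPM in control libraries (1.24 ± 0.333, adjusted p = 0.0473, edgeR). Leaving out any library other than control replicate 1 or PSCI replicate 1 ended the call (adjusted p of 0.0723 to 0.163). Of 11 receptors that read class I, 8 were in the tables, and 6 of these were removed by the filter on low counts. Cd8a and Lilrb3 were left. Cd8a passed the filter mainly through PSCI replicates 2 and 3, the libraries where it is high, so its call is a description. Cd8a, a chain of the T cell co-receptor, had 2, 3 and 15 counts in taVNS libraries, 5, 153 and 44 counts in PSCI libraries and 0 counts in each control library, where 0 allows up to 0.201 to 0.218 CPM at a floor of 3 counts per library. Its adjusted p was 0.0426 in PSCI against control, and leaving out any library other than PSCI replicate 1 or taVNS replicate 3 ended the call (0.0601 to 0.109). Lilrb3, an inhibitory receptor of myeloid cells, had 17, 15 and 11 counts in taVNS libraries, 6, 74 and 95 counts in PSCI libraries and 2, 3 and 2 counts in control libraries. It was called higher in PSCI against control (adjusted p = 0.0178), with 0.0673 to 0.0776 on leaving out any 1 control and 0.0542 on leaving out PSCI replicate 3.

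The genes most like the members were sought among 13460 other genes, by the root mean square difference over the 9 libraries between a gene's log2 CPM, relative to its control mean, and the average of the same over the 8 members. That average stood at 0.33, 0.58 and 0.73 in taVNS libraries, 0.57, 1.44 and 1.22 in PSCI libraries and 0.052, 0.13 and -0.18 in control libraries. The 6 nearest genes were Csf1r (0.124), Akna (0.141), Cx3cr1 (0.147), Tram2 (0.149), RT1-CE5 (0.152) and Adgre1 (0.157), all nearer than any single member (0.167 for RT1-A2 to 0.554 for Psmb8). The 6 were picked by this distance and the members were not, so nothing is concluded from that ordering. Csf1r, the receptor for colony-stimulating factor 1 on microglia, had 96.3, 117 and 129 CPM in taVNS libraries, 146, 248 and 195 CPM in PSCI libraries and 97.4, 90.1 and 69.8 CPM in control libraries. Cx3cr1 and Adgre1 (F4/80) are likewise receptors known from microglia and macrophages, and Csf1r and Cx3cr1 also stand in the marker list described next.

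By group mean, the summed markers of microglia and macrophages stood in the same order of groups as the members. So did those of T cells, endothelium, reactive astrocytes and choroid plexus, so this order was not particular to microglia. For all marker counts that follow, 7.71% of all genes were called higher in PSCI against control. In taVNS against PSCI 4.91% were called lower and 0.842% higher. Of the 14 markers of microglia and macrophages, 10 were called higher in PSCI against control, and 7 were called lower and 1 higher in taVNS against PSCI. Within the PSCI group their sum was lowest in replicate 1 (669 CPM) and highest in replicate 2 (1060 CPM), as for most members. The sums for endothelium and reactive astrocytes, given next, were likewise lowest in PSCI replicate 1 and highest in PSCI replicate 2 of that group, and the PSCI libraries lay above the taVNS and control libraries for astrocytes but overlapped taVNS for endothelium. The markers of hippocampal neurons ran the other way, with 8780 CPM in PSCI replicate 1, 4250 CPM in replicate 2 and 7590 CPM in replicate 3. The 12 T cell markers summed to 7.92 to 18.4 CPM in taVNS, 14.3 to 26.6 CPM in PSCI and 4.53 to 11.0 CPM in control libraries, and 6 of them, among them Cd8a, Cd8b and Cd247, were at 0 in all control libraries. Cd3d, Cd247, Cd5 and Gzmk were at 0 in all taVNS libraries and Cd3d in all PSCI libraries. The 11 endothelial markers in the tables summed to 248 to 342 CPM in taVNS, 320 to 397 CPM in PSCI and 163 to 306 CPM in control libraries, with 2 of 11 called higher in PSCI against control. The 8 markers of reactive astrocytes summed to 907 to 1450 CPM in taVNS, 4710 to 9350 CPM in PSCI and 669 to 1240 CPM in control libraries, and all 8 were called higher in PSCI against control and lower in taVNS against PSCI. The 12 meningeal markers held no call in any comparison. Their median difference was 1.86 in PSCI against control, 1.72 in taVNS against control and -0.17 in taVNS against PSCI. Choroid plexus markers summed to at most 12.6 CPM in any library. Red blood cell markers summed to 185 to 432 CPM in taVNS, 38.1 to 110 CPM in PSCI and 118 to 132 CPM in control libraries, and 3 of 5 tested were called higher in taVNS against PSCI. The part of these other cell types in the members' levels was not tested either.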

How the data were processed

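Poly(A)-selected hippocampal RNA of 9 libraries, 3 in each of the taVNS, PSCI and control groups, was analysed from 2 values per gene. The authors deposited estimated counts per gene (expected counts, not scaled), and the submitters' processing notes name HISAT2 2.0.4, RSEM 1.2.8 and the build mRatBN7.2 without saying what each was used for. The authors also deposited RPKM values, which are scaled to depth and gene length, how exactly is not given in the sources used here.

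Estimated counts, whole in 91.1% to 91.6% of genes per library, were rounded, and genes with low counts were removed (filterByExpr, 14840 of 18733 kept). TMM normalization and the edgeR 4.0.16 quasi-likelihood test (R 4.3.3) on all 3 groups gave 6 residual degrees of freedom, log2 fold changes (prior count 2) with SE, and Benjamini-Hochberg adjusted p-values over all genes tested, with a threshold of 0.05. All p-values without another name come from this test. RPKM served for levels between genes and for ratios within a library, which were compared by exact permutation tests. A level of 0 allows up to 0.195 to 0.218 CPM, or 3 counts, and covers counting error only. Alternatives were DESeq2 1.42.0, RLE size factors, limma-voom (3.58.1), no filter, limma on log2(RPKM + 0.1 or 1), only the 2 groups compared, the replicate number as a block, each library left out and a pair left out.

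The members and all gene and marker lists were chosen with earlier results of these data known. Named genes were all members, the called list genes with the 4 largest differences in PSCI against control, a few fixed genes (Psmb5, Psmb6, Psmb7, Psme1, Psme2, Tapbp, Nlrc5, Irf1; 1 further gene of the rule is not reported here), class I RT1 rows, and the 6 genes most like the members among those with a mean of at least 1 CPM. Nothing in the labels says that same-numbered libraries are paired, so the numbers were not taken to pair them. Correlations of deviations from the group mean were -0.468 to 0.255 for same-numbered and -0.388 to 0.458 for different-numbered libraries and cannot settle it. Promoters came from RefSeq tables of build GRCr8, and protein sequences were not used here.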

Additional observations from a re-analysis of the deposited data

How the results depend on the processing

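With 3 libraries a group, edgeR calls over all genes often changed when 1 library was left out, and the cause was not tested. Some calls ended although the difference grew: that of Tap1 in PSCI against control was 1.48, and 1.57 without control replicate 1 and 1.6 without control replicate 2. In PSCI against control, 1461 genes were called, against 2278 with DESeq2, 806 with only the 2 groups compared and 548 to 2255 with 1 library left out. Of the members 4 were called, against 2 with limma-voom and 2 to 7 with 1 library left out. DESeq2 also called RT1-A1, at the threshold after rounding, and Tap2. Tap2 was called as well with RPKM with 0.1 or 1 added (filtered) and with the block. Psmb8 was not called with only the 2 groups compared, nor was Tap1 without the pair with high meningeal markers. Activators and assembly factors had 1 call, against 0 with limma-voom, with RPKM under each of 3 settings, with only the 2 groups and with the block, and 0 to 1 with 1 library left out. Peptide loading had 2, against 0 with only the 2 groups, 1 without PSCI replicate 2 and taVNS replicate 3 together, and 0 to 5 with 1 library left out. Regulators had 5, against 4 to 9 with 1 library left out. Other class I-like genes had 1, against 0 with RLE size factors, no filter, only the 2 groups, the block or the pair left out, 2 with DESeq2 or RPKM with 0.1 or 1 added, and 0 to 4 with 1 library left out. Receptors had 2, against 6 with DESeq2, 0 with limma-voom or RPKM with 1 added, 4 with no filter on counts or RPKM, 1 with RPKM with 0.1 added, only the 2 groups or the pair left out, and 0 to 4 with 1 library left out. Interferon-induced genes had 3, against 5 for RPKM with 1 added. Class II genes had 4, against 7 with DESeq2, 2 with limma-voom, each RPKM setting or only the 2 groups, and 2 to 8 with 1 library left out. Class I RT1 genes had 2, against 5 with DESeq2, 1 without the pair and 1 to 4 with 1 library left out. The uncalled differences ran from -0.18 to 0.0072 for Psmb5, -0.17 to 0.034 for Psmb6 and -0.13 to 0.034 for Psmb7 with 1 library left out.

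In taVNS against PSCI, 854 genes were called, against 1560 with DESeq2, 480 with limma-voom, 250 with only the 2 groups, 518 with the block, 361 without the pair and 172 to 1707 with 1 library left out. Members had 0 calls, against 1 with DESeq2 and 0 to 4 with 1 library left out. Activators had 0, against 0 to 1 with 1 library left out. Peptide loading had 0, against 1 with DESeq2 or the block and 0 to 1 with 1 library left out. Regulators had 4, against 2 with only the 2 groups and 2 to 6 with 1 library left out. Class I-like genes had 0, against 1 for RPKM with 1 added and 0 to 1 with 1 library left out. Receptors had 0, against 1 with DESeq2 or unfiltered RPKM and 0 to 3 with 1 library left out. Interferon-induced genes had 2, against 4 with DESeq2, 1 with only the 2 groups and 1 to 2 with 1 library left out. Class II genes had 2, against 2 to 7, and class I RT1 genes 0, against 1 with DESeq2 and 0 to 3 with 1 library left out.

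In taVNS against control, 0 genes were called, against 7 with DESeq2 (1 of them interferon-induced), 1 with unfiltered RPKM, 1 without the pair and 0 to 1 with 1 library left out. RT1-A1, at 0.30, was -0.04 without the pair and -0.03 to 0.54 with 1 library left out. No other member changed sign in any alternative run, and constitutive 20S genes had 0 calls in each. Whether the replicate numbers pair the libraries is not given. Same-numbered correlations ran from -0.468 to 0.255 and different-numbered ones from -0.388 to 0.458, which cannot settle it. With the number as a block 1084 genes and 5 members were called in PSCI against control. All scalings moved the median of all genes by less than 0.1 (log2). In total 2 of 468 alternative values of members, 87 of 1193 of other class I RT1 genes and 33 of 1647 of other named genes changed sign, none of them with a call.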
